A study of Saccharomyces cerevisiae with 22 samples.

Results

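Ribosome footprints near the start of each coding region were compared between budding yeast growing in glucose and yeast moved to medium without it. For each gene, reads in the initiation region were set against reads in the downstream region, as the deposited counts name them. This was done in 8 footprint libraries, 4 with glucose and 4 without, of 22 samples in the series. A gene was kept if both regions together held at least 50 reads in each of the 8 libraries, which left 2213 of the 5381 genes in the table. No source used here gives the bounds of the initiation region, so a share measures how the reads of one gene are divided and cannot be turned into a density per base.

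The series profiled mRNA and ribosome-protected fragments of Saccharomyces cerevisiae in 2 laboratory strains, BY4741 and EY0690, the latter labelled as w303. Cultures were grown at 30 °C to an OD600 of 0.3 to 0.4 in glucose-containing synthetic complete medium. The starved cultures then spent 15 min in the same kind of medium lacking glucose. All samples, with and without glucose, were given 100 ug/ml cycloheximide for 1 min, a drug that stops elongating ribosomes on the mRNA. RNase I (100 U, 30 min) left the fragments covered by ribosomes, and a sucrose gradient or a sucrose cushion served to isolate monosomes. Which library had which, and which of 2 reverse transcription primers, is not in the labels. Each strain and condition had 2 footprint libraries and 2 libraries of fragmented polyA RNA, the mRNA pool captured on oligo-dT, which give the same measure without ribosomes. Nothing in the labels says that the 2 libraries of a group came from separate cultures, so the p-values below measure the spread between these libraries, which may be partly technical. For single genes, the main test in effect pooled this spread over genes, so its p-values do not rest on the spread of each gene alone.

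Translation begins when a small ribosomal subunit carrying initiator tRNA finds the start codon and a large subunit joins. The ribosome then moves codon by codon, so the number of footprints at the start of a gene reflects entry, the speed of the first codons and any pausing there, while footprints further along reflect the ribosomes in transit. In budding yeast, removal of glucose is known to shut down most initiation within minutes and to switch on genes for other carbon sources, reserve carbohydrates and stress protection. Cycloheximide is known to let ribosomes gather near start codons while initiation runs on, so the start share depends on the drug as well as on the cells.

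The first 45 coding bases are printed for 6 genes that rose and 6 that fell, to show where the coding sequence of each begins. They are the largest fitted changes in the ratio of start to downstream reads under the rule for named genes. This is not a ranking by points of start share. Whether they cover the initiation region as counted is not known, and MGM1 holds its rank through starved libraries without a start read. They come from the RefSeq R64 genome, with the start codon in capitals. SUC2 begins at chrIX:37385-37429 (+), TSL1 at chrXIII:70624-70668 (+), HXK1 at chrVI:255005-255049 (-), GSY2 at chrXII:660716-660760 (+), MSN4 at chrXI:323228-323272 (+) and PMP1 at chrIII:163023-163067 (-). Of the genes that fell, MGM1 begins at chrXV:741525-741569 (-), KAP123 at chrV:382059-382103 (-), MSB2 at chrVII:516943-516987 (+), FKS1 at chrXII:809997-810041 (+), URA2 at chrX:172323-172367 (-) and IMD4 at chrXIII:164132-164176 (-).
SUC2: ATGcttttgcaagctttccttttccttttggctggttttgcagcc
TSL1: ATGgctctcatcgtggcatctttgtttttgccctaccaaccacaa
HXK1: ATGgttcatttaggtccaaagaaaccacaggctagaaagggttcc
GSY2: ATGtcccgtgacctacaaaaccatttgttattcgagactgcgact
MSN4: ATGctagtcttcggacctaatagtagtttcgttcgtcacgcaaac
PMP1: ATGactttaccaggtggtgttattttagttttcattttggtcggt
MGM1: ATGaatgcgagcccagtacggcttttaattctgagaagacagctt
KAP123: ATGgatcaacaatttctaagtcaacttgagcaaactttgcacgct
MSB2: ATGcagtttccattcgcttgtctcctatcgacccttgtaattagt
FKS1: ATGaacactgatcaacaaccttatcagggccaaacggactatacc
URA2: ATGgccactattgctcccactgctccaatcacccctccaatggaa
IMD4: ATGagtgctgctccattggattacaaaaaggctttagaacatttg

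Depth and libraries that stand apart bear on every value below. Summed over both regions and all genes, the footprint libraries held 4781385 and 8831738 reads in BY4741 with glucose and 2266758 and 5447307 without. In EY0690 they held 963157 and 783172 reads with glucose and 1940422 and 1347360 without. The shallow EY0690 libraries set most of the read minimum: 129 and 153 kept genes had no start read in the 2 glucose libraries of that strain, against 15 in each of the glucose BY4741 libraries. The BY4741 footprint libraries numbered 2 stand apart, with log2 depth-scaled counts over the kept genes that correlated at 0.929 and 0.945 with the matching polyA library, against 0.792 to 0.851 in the other 6. The first glucose BY4741 library stands apart in the measure itself, as the next values show. The 294 genes whose shallowest library held 50 to 59 reads had median start shares of 4.26 to 12.4% over the 8 libraries, and the 381 genes just under the minimum, with 40 to 49 reads, had 4.95 to 12.9%.

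Taken over all kept genes, no shift of ribosomes toward or away from the start could be told from the spread between libraries. In BY4741, start-region reads made up 14.4 and 8.34% of footprint reads with glucose and 11.2 and 10.5% without. In EY0690, they made up 8.63 and 10.9% with glucose and 13.7 and 11.2% without. The highest and the lowest of the 8 values were both BY4741 with glucose, so the starved values of that strain lay between its 2 glucose values, while both EY0690 starved values lay above both glucose values. The mean was 10.6% ± 2.81 (SD, n = 4) with glucose and 11.6% ± 1.39 (SD, n = 4) without, a difference of 1.04 percentage points (exact two-sided permutation test within strain, p = 0.611; the smallest p these 36 arrangements allow is 0.0556). Counting error is far smaller: the Wilson 95% interval ran from 10.8 to 11.0% in the shallowest library, and it covers counting error alone, since reads without molecular identifiers are not independent molecules. Leaving out the first glucose BY4741 library raised the difference to 2.32 points (exact permutation test, p = 0.111, the smallest that its 18 arrangements allow).

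The typical gene behaved like the sum. The median start share over the 2213 genes was 10.9 and 4.83% in BY4741 with glucose and 7.68 and 6.25% without. For EY0690 it was 4.84 and 6.52% with glucose and 10.1 and 7.74% without. The mean of these medians was 6.78% ± 2.88 (SD, n = 4) with glucose and 7.94% ± 1.58 (SD, n = 4) without, 1.15 points higher (exact permutation test within strain, p = 0.556). Of the 4 same-numbered pairs of libraries, 3 had the higher median without glucose, and the first BY4741 pair had the lower. Without the first glucose BY4741 library the difference in medians was 2.54 points (exact permutation test, p = 0.111).

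Fragmented polyA RNA gave much lower start shares with little spread. Its median gene share was 1.85 to 2.21% in the 4 glucose libraries and 2.03 to 2.19% in the 4 starved ones. The footprint median was 2.35 to 4.95 times that of the matching polyA library. Summed over genes, the polyA start share was 4.67% ± 0.321 (SD, n = 4) with glucose and 4.20% ± 0.345 (SD, n = 4) without, a difference of -0.472 points whose p of 0.0556 is the smallest that the exact permutation test within strain allows. Total RNA of BY4741, 1 library per condition, had start shares of 3.31% with glucose and 3.51% without.

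**Figure D1:**
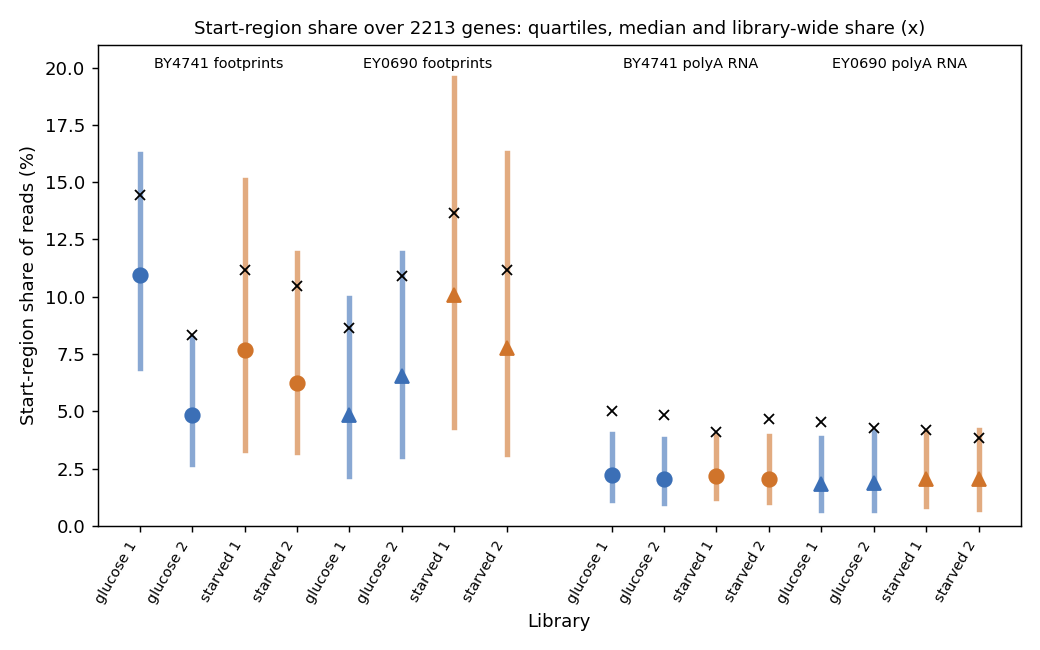
Start-region share of reads (percent) in each of the 8 footprint and 8 polyA RNA libraries, over the 2213 kept genes; vertical bars span the quartiles over genes, circles (BY4741) and triangles (EY0690) mark the median gene, and crosses the share summed over genes. Footprint medians run from 4.83 to 10.9% with the 2 glucose BY4741 libraries at both ends, while polyA medians stay between 1.85 and 2.21%.

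Individual genes moved in opposite directions, while no shift of the average could be told from the spread between libraries. For each gene the change is given as the log2 change of the odds of a start read, that is start reads over downstream reads, without glucose against with it; 1 on this scale is a doubling of that ratio. The fit (edgeR's quasi-likelihood test over all 2213 genes, strain as a covariate, Benjamini-Hochberg adjustment) called 46 genes higher, 2.08% of those tested, and 12 lower, 0.542%, at an adjusted p under 0.05. With the replicate number as a block, it called 72 higher (3.25%) and 16 lower (0.723%), including all 46 and 11 of the 12. The median change over all genes was 0.27, and 1372 of 2213 genes, 62%, lay above 0. When the start and the downstream counts were each scaled to the typical gene (TMM, a scaling that sets the bulk of genes to no change), the median moved from 0.27 to -0.00, 51 genes were higher (2.3%) and 46 lower (2.08%), including 41 of the 46 and all 12. On this second scale a change is relative to the typical gene, so the number of falls depends on where the zero is put. The shares in the 4 starved and 4 glucose libraries did not overlap for 119 genes with the starved side higher (5.38%) and 42 with it lower (1.9%); among the called genes this held for 37 of 46 and 10 of 12.

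The number of calls rests on single libraries. Leaving out the first glucose BY4741 library raised the genes called higher from 46 to 180, and leaving out any 1 of the EY0690 libraries, the second glucose BY4741 or the first starved BY4741 library lowered them to between 9 and 24. Without both BY4741 libraries numbered 2, 27 genes were higher, 26 of them among the 46, and 13 lower, 9 of them among the 12. Of the 10 largest rises described next, SUC2, TSL1, HXK1, GSY2, PMP1 and TPS2 passed whichever 1 of the 8 libraries was left out, and of the 10 largest falls KAP123, MSB2, FKS1 and URA2 did. The other 4 rises and 6 falls lost their call without at least 1 library. EY0690 alone gave 72 higher and 6 lower, and BY4741 alone gave 0 in either direction, with 63 genes at an unadjusted p under 0.05 in edgeR. All 46 genes called higher had a change above 0 in each strain fitted alone, and all 12 called lower had one below 0 in each; the 8 libraries that gave those values also gave the calls, so this describes the calls and does not test them.

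The 4 largest rises were in SUC2, TSL1, HXK1 and GSY2, genes of sugar use and carbon reserves. SUC2, the secreted invertase that splits sucrose, had 1 and 3 start reads in the glucose BY4741 libraries and 12 and 68 without glucose, or shares of 0.694 and 0.943% against 8.16 and 21.7%. In EY0690 it had 0 start reads of 68 and of 50 with glucose, which allows shares of up to 4.41 and 6.0%, and 65 and 21 start reads without, shares of 13.7 and 10.8%. All 4 starved shares lay above all 4 glucose shares, and the odds rose by 4.56 ± 0.93 (SE) on the log2 scale (adjusted p = 0.000383, edgeR). HXK1, a hexokinase that is made when glucose is scarce, went from 7.92 and 3.75% to 45.5 and 59.8% in BY4741 and from 2.76 and 1.45% to 9.01 and 26.1% in EY0690. That is 8 and 14 start reads against 449 and 1340 in BY4741, and 6 and 5 against 193 and 324 in EY0690. No starved value of HXK1 fell within the glucose range, and its odds rose by 3.78 ± 0.63 (SE, adjusted p = 3.51e-06, edgeR). With each region scaled by TMM, the adjusted p was 0.00312 for SUC2 and 0.00261 for HXK1 (edgeR).

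Trehalose and glycogen are the reserve carbohydrates of yeast. TSL1, a regulatory subunit of the trehalose synthase complex, went from 5.88 and 1.01% to 25.9 and 33.0% in BY4741 and from 4.06 and 1.92% to 33.1 and 24.0% in EY0690. TPS2, the phosphatase of the same complex (chrIV:593893-596583), went from 7.95 and 0.753% to 36.1 and 13.5% in BY4741 and from 7.56 and 5.39% to 39.4 and 23.9% in EY0690. For GSY2, the main glycogen synthase, the shares were 8.24 and 4.39% against 49.6 and 34.7% in BY4741 and 4.88 and 7.81% against 41.1 and 25.7% in EY0690. In each of these 3 genes every starved library lay above every glucose library. Their odds rose by 3.86 ± 0.65 for TSL1, 3.0 ± 0.61 for TPS2 and 3.23 ± 0.71 for GSY2 (log2 ± SE, edgeR adjusted p = 3.51e-06, 0.000383 and 0.000946). With each region scaled by TMM, the adjusted p values were 0.00158, 0.00811 and 0.00176 (edgeR). PYK2, the pyruvate kinase isoform used at low glycolytic flux (chrXV:984942-986462), went from 9.56% ± 7.37 with glucose to 40.8% ± 7.51 without (SD, n = 4), and its odds rose by 2.94 ± 0.79 (adjusted p = 0.0167, edgeR).

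Of the 10 largest rises, MSN4 and GIS1 encode transcription factors. MSN4, a transcription factor of the general stress response, had only 6 start reads in all glucose libraries and 71 in the starved ones. Its shares were 1.89 and 0.468% against 8.11 and 10.5% in BY4741, and 1.42 and 0% against 2.33 and 11.7% in EY0690, where 0 of 70 reads allows up to 4.29%. The groups did not overlap, although the first starved EY0690 library lay close to the glucose values; the odds rose by 3.15 ± 0.89 (adjusted p = 0.0245, edgeR). GIS1, a transcription factor of the response to nutrient limitation (chrIV:637139-639823), had shares of 5.25% ± 2.37 with glucose and 29.6% ± 12.8 without (SD, n = 4), a rise of 2.95 ± 0.78 (adjusted p = 0.0133, edgeR). Other regulators were picked out after their values were seen. The odds rose by 2.79 for GPA2 and 2.55 for RAS2, both G proteins that signal glucose to adenylate cyclase (edgeR adjusted p = 0.0125 and 0.0025). They also rose by 2.45 for HAP4, the activator of respiratory genes, by 2.27 for MIG1, the glucose repressor, and by 2.42 for RPN4, the activator of proteasome genes (edgeR adjusted p = 0.025, 0.0415 and 0.0398). The call of MIG1 is lost when each region is scaled by TMM (adjusted p = 0.0591, edgeR).

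The remaining 2 of the 10 largest rises were in short genes whose mRNA fell. PMP1, a small proteolipid that regulates the plasma membrane proton pump, had a large start share even with glucose. Its shares were 65.6 and 47.0% against 93.2 and 74.2% in BY4741 and 57.6 and 57.8% against 96.0 and 94.4% in EY0690. Every starved share was higher than every glucose share, and the odds rose by 3.05 ± 0.60 (adjusted p = 0.000236, edgeR). Here the change lay in the downstream reads: scaled to the typical gene, they fell by 2.73 (adjusted p = 0.000339, edgeR), while start reads changed by -0.30. RPL40B, which encodes ubiquitin fused to a protein of the large ribosomal subunit (chrXI:617996-618750), went from 1.55% ± 0.78 to 12.6% ± 9.75 (SD, n = 4), a rise of 2.94 ± 0.63 (adjusted p = 0.000717, edgeR). Its value is uncertain, because 36.9% of its 28-base words occur elsewhere in the genome's coding sequences and no source used here says how reads with several matches were counted.

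The genes that fell serve nuclear import, the cell wall, nucleotide and lipid synthesis, glycolysis and the ribosome. None of the 12 had downstream counts that changed by the test. Those counts enter the odds that gave the calls, so this is a description. KAP123, a nuclear import receptor for ribosomal proteins, had shares of 4.85 and 2.27% with glucose and 0.210 and 0.883% without in BY4741, and 1.63 and 3.69% against 0.0649 and 0.425% in EY0690. In reads that is 313 and 240 against 5 and 38 in BY4741 and 13 and 24 against 1 and 6 in EY0690. The groups did not overlap; the odds fell by 3.08 ± 0.63 (log2 ± SE; adjusted p = 0.000383, edgeR), with start reads at -3.45 and downstream reads at 0.09 on the log2 scale. FKS1, the catalytic subunit of the enzyme that makes the main glucan of the cell wall, had 4.14 and 3.07% against 0.319 and 0.635% in BY4741 and 1.62 and 1.88% against 0.327 and 0.430% in EY0690. URA2, which carries out the first steps of pyrimidine synthesis, had 4.60 and 0.904% against 0.331 and 0.404% in BY4741 and 4.88 and 3.50% against 0.607 and 0.738% in EY0690. Both genes were lower in every starved library than in any glucose library. The odds fell by 2.63 ± 0.55 for FKS1 and by 2.60 ± 0.55 for URA2 (edgeR adjusted p = 0.000493 and 0.000717).

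MSB2, a mucin-like sensor at the cell surface, had 9.46 and 4.07% against 0.554 and 0.342% in BY4741 and 5.19 and 8.31% against 2.24 and 2.33% in EY0690. IMD4, one of the IMP dehydrogenases of GTP synthesis, had 16 and 4.21% against 2.38 and 1.86% in BY4741 and 6.05 and 3.40% against 0.905 and 0.329% in EY0690. No starved value overlapped the glucose values in either gene, and the odds fell by 2.70 ± 0.63 and 2.58 ± 0.59 (edgeR adjusted p = 0.00246 and 0.00203). ANP1, a subunit of a Golgi mannosyltransferase (chrV:83050-84552), went from 10.9% ± 3.71 to 2.18% ± 2.46 (SD, n = 4; fall 2.50 ± 0.76 SE, adjusted p = 0.0425, edgeR). FAS1, the beta subunit of fatty acid synthase (chrXI:100671-106826), went from 4.46% ± 1.33 to 1.37% ± 0.688 (SD, n = 4). CDC19, the main pyruvate kinase of growing cells (chrI:71786-73288), went from 8.74 and 6.25% to 1.89 and 2.85% in BY4741 and from 2.96 and 6.52% to 1.14 and 1.81% in EY0690, and RPL32, a protein of the large ribosomal subunit (chrII:45978-46370), from 20.6% ± 6.80 to 7.80% ± 4.13 (SD, n = 4). In these 3 genes also the starved and glucose values did not overlap, with falls of 1.85 ± 0.51, 1.71 ± 0.48 and 1.77 ± 0.54 (log2 ± SE; edgeR adjusted p = 0.0213, 0.0233 and 0.0435). The 2 pyruvate kinases thus moved in opposite directions, PYK2 up and CDC19 down.

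MGM1, a dynamin-like GTPase of mitochondrial fusion, had few reads. Its start reads were 3 and 8 in BY4741 and 3 and 1 in EY0690 with glucose, and 0 in all 4 starved libraries. Zero of 136 and of 407 reads allows shares of up to 2.21 and 0.737% in BY4741, and 0 of 105 and of 76 allows 2.86 and 3.95% in EY0690. The fitted odds change was -5.0 ± 1.53 (SE, adjusted p = 0.0452, edgeR), a size that rests on the starved zeros. Taking 3 counts over the starved group as the floor, its pooled share was 3.48-fold lower without glucose. That ratio was not tested, and it leaves out the error of the 15 glucose start reads. Of the 4 limits, 3 exceed its glucose shares of 1.35 and 1.15% in BY4741 and 1.54% in the second EY0690 library, so the separation of its groups rests on the zeros. MGM1 was the 1 called fall that lost its call with the replicate block (adjusted p = 0.0643, edgeR), and it passed in 1 of the 8 fits that left out a library (highest adjusted p = 0.212, without the first glucose EY0690 library). The other 2 called falls, in which starved and glucose values overlapped, were in genes of translation: PAB1, the poly(A)-binding protein, and TEF4, a subunit of elongation factor 1B. PAB1 had 6.33 and 6.0% against 0.697 and 1.87% in BY4741 and 1.73 and 6.35% against 0.264 and 1.51% in EY0690, a fall of 2.38 ± 0.58 (adjusted p = 0.00432, edgeR). TEF4 fell by 2.22 ± 0.54 (adjusted p = 0.0042, edgeR), and more in EY0690 by value, -3.33 against -1.20 in BY4741. That strain difference did not pass its own test. PAB1 and TEF4 each passed in 5 of the 8 fits that left out a library, with a highest adjusted p of 0.152 without the second glucose EY0690 library and of 0.151 without the second starved one (edgeR).

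**Figure D2:**
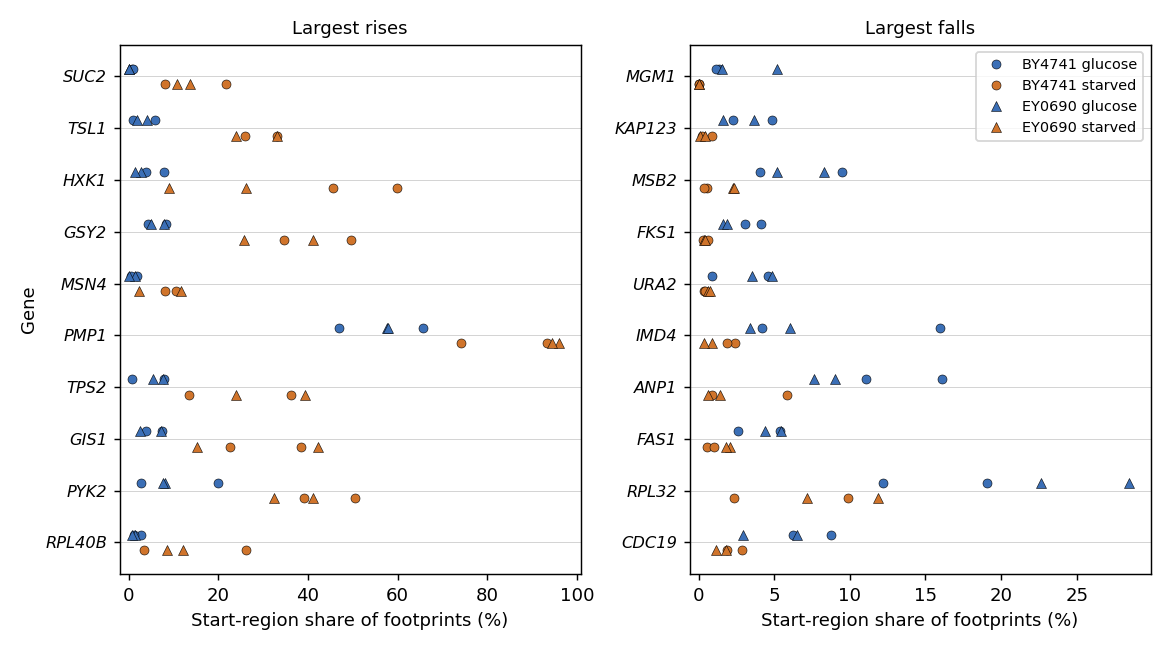
Start-region share of footprints (percent), 1 point per library, of the 10 genes with the largest rises of start odds (left) and the 10 with the largest falls (right) whose groups did not overlap. Circles are BY4741, triangles EY0690, blue with glucose and orange without. The axes differ: PMP1 reaches 96.0% on the left, and no starved value exceeds 11.9% on the right.

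The mRNA level of a gene, measured in the polyA libraries, was not used to choose or test the start share, and the 2 tended to move together. Of the 46 genes called higher, 39 also had a higher mRNA level and 3 a lower one by edgeR at an adjusted p under 0.05; over all 2213 genes, mRNA was higher for 434, 19.6%, and lower for 429, 19.4%. The median mRNA change of the 46 was 1.41 on the log2 scale, against -0.03 for all kept genes. HXK1 mRNA rose by 5.39, TDH1 by 4.12, HXT4 by 3.38, SUC2 by 2.73 and TSL1 by 2.52. Start-region counts taken alone belong to the same contrast as the calls and are given as a description: 35 of the 44 genes called higher with enough start reads to fit had higher start counts, and 11 of 11 called lower had lower ones, where over all 1816 kept genes fitted 6.94% were higher and 10% lower. Downstream footprints, the usual measure of how many ribosomes translate a gene, are the other side of that contrast and are likewise a description. Their median change over the 46 was 0.44, with 8 called higher and 3 lower. Over all 2211 genes fitted, 48 were called higher, 2.17%, and 10 lower, 0.452%. The 12 genes called lower had a median mRNA change of -0.33, with 1 called higher and 3 lower, and none of their downstream counts was called.

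Grouped by mRNA response alone, the median start share in each of the 4 starved libraries was highest in the genes with the largest mRNA rise. The 41 genes whose mRNA rose by 2 or more on the log2 scale had median start shares of 8.25 and 4.84% in BY4741 and 5.49 and 6.0% in EY0690 with glucose, and of 19.8 and 22.2% and of 15.8 and 20.2% without. All 41 had a change of start odds above 0, in each strain as well, with a median of 1.76, and 14 were called higher. The 114 genes with an mRNA rise of 1 to 2 had median starved shares of 14.2 and 15.8% in BY4741 and 13.8 and 15.0% in EY0690; 111 of them lay above 0, with a median of 1.22 and 14 called higher. A rise under 1 (279 genes) went with a median change of 0.74, 11 called higher and 1 lower. Genes whose mRNA was not called (1350) had a median of 0.19, with 4 called higher and 8 lower; their median starved shares were 6.67 and 5.74% in BY4741 and 9.84 and 7.02% in EY0690. Where mRNA fell (429 genes), the median was -0.20, with 3 higher and 3 lower. By strain it was -0.38 in BY4741 and 0.10 in EY0690, against -0.07 and 0.69 for all kept genes. On the scale relative to the typical gene, the medians of the 5 classes were 1.53, 0.90, 0.46, -0.06 and -0.46. Median starved shares of the genes with a fall in mRNA were 6.96 and 4.41% in BY4741 and 7.78 and 4.90% in EY0690, below those of genes with no mRNA call in every library except the first of BY4741.

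**Figure D3:**
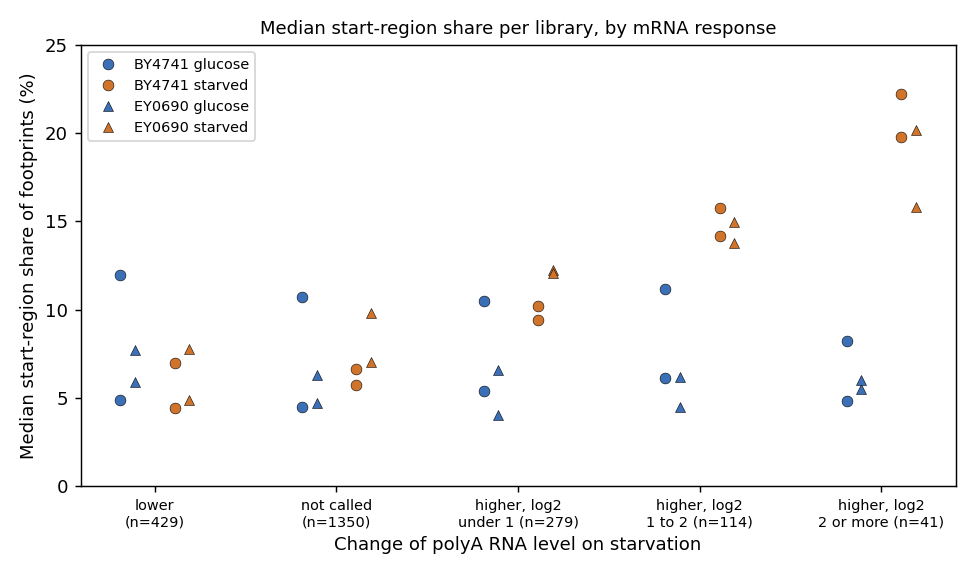
Median start-region share of footprints (percent) in each of the 8 libraries for genes grouped by the change of their polyA RNA level; circles are BY4741, triangles EY0690, blue with glucose and orange without. In the 41 genes with the largest mRNA rise the starved libraries sit at 15.8 to 22.2% and the glucose libraries at 4.84 to 8.25%, while for genes with a fall in mRNA both groups overlap.

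Across the 2213 genes, the change of start odds relative to the typical gene correlated with the change of mRNA level at Pearson's r = 0.498 and Spearman's rho = 0.451. Genes are not independent replicates, and each point shares the same libraries, so these are descriptions. The same change had r = 0.074 with the change of downstream footprints, which share reads with it in the denominator, r = -0.165 with the log2 of the listed gene length and r = 0.027 with the GC content of the first 60 coding bases. The change in EY0690 correlated with that in BY4741 at r = 0.424. With both strains in the fit, the median change was 0.47 in the shortest of 4 equal classes of genes (77 to 935 bases as listed). It was 0.33 and 0.23 in the middle classes and 0.00 in the longest (2327 to 14732 bases). That order was seen in BY4741 alone, with medians of 0.25, 0.03, -0.14 and -0.47 from shortest to longest. EY0690 alone ran the other way, at 0.65, 0.66, 0.74 and 0.77. The 12 genes called lower had a median listed length of 2314 bases, against 1493 for all kept genes and 1404 for the 46 called higher.

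**Figure D4:**
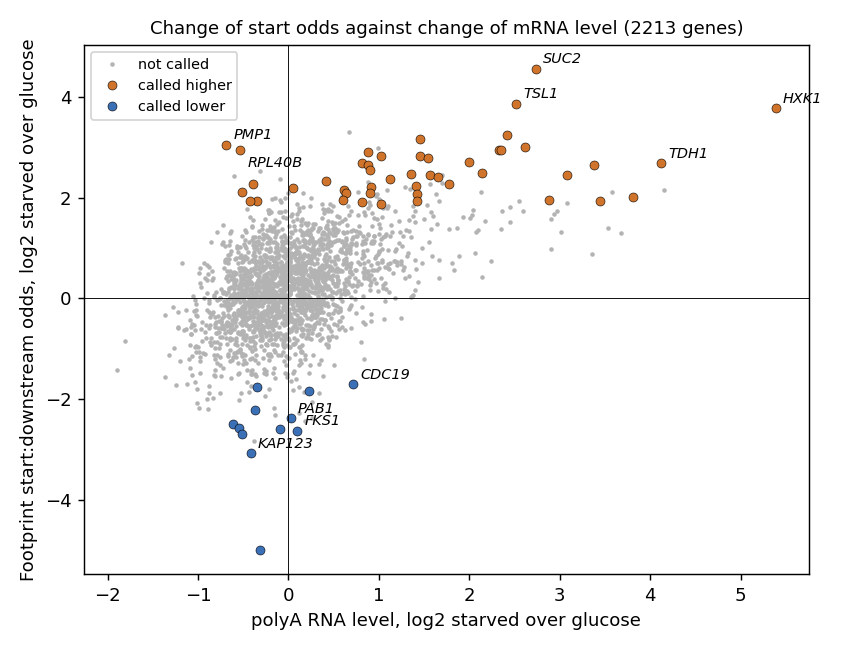
Log2 change of footprint start:downstream odds (y) against log2 change of polyA RNA level (x), starved over glucose, 1 point per gene for 2213 genes; orange and blue points are the 46 genes called higher and the 12 called lower. Called rises lie mostly to the right, up to HXK1 at an mRNA change of 5.39, with PMP1 and RPL40B among those on the left, and called falls lie near an mRNA change of 0.

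The lists of gene groups spread along the axis of start odds, and not all of them followed their mRNA. Beside them stand the values for all kept genes: a median of 0.27, 62% above 0, 2.08% called higher and 0.542% called lower. List totals count symbols, and some symbols were absent from the table and so did not fail the read minimum. Those present were 62 of 63 for ribosome biogenesis, 35 of 38 for translation factors and 20 of 22 for mRNA decay. They were 47 of 49 for amino acid synthesis, 20 of 21 for general stress and 31 of 32 for transporters. Of 20 genes of glycogen and trehalose metabolism, 9 were kept; 8 of the 9 lay above 0 with a median of 1.37, and TSL1, TPS2 and GSY2 were the 3 called. Among the 11 not kept were GLC3, GPH1 and GDB1, with 23, 41 and 35 reads in the first glucose BY4741 library. Respiratory chain subunits, nuclear genes for the enzymes of oxidative phosphorylation, were kept for 32 of 33, and all 32 lay above 0, with a median of 1.29 and 5 called higher. QCR6, a subunit of complex III, went from 26.1 and 17.3% to 76.2 and 50.1% in BY4741 and from 12.3 and 12.6% to 51.8 and 53.1% in EY0690. Its groups were far apart, and the odds rose by 2.83 ± 0.61 (adjusted p = 0.000842, edgeR). COR1, a core subunit of the same complex, went from 5.91 and 4.17% to 20.2 and 13.3% in BY4741 and from 0 and 0.641% to 4.89 and 7.59% in EY0690, where 0 of 331 reads allows up to 0.906%. It rose by 2.68 ± 0.64 (adjusted p = 0.00395, edgeR), although the EY0690 starved values overlapped the BY4741 glucose values. Of the 9 genes named through the lists that were called, QCR6 was the 1 that passed whichever library was left out; COR1 passed in 5 of 8 fits, TDH1 in 7, HXT4 and STI1 in 6, RPL26A in 4 and SIS1 in 2. SDH4 and SDH3, the membrane anchors of succinate dehydrogenase, rose by 2.82 and 2.64, and QCR2 of complex III by 2.09 (edgeR adjusted p = 0.00665, 0.00536 and 0.025).

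Most chaperone and stress genes lay above 0, and few passed the test. Targets of the heat shock factor Hsf1 were kept for 14 of 18, 13 of them above 0, with a median of 1.17 and 2 called higher. STI1, which links Hsp70 to Hsp90, went from 4.69 and 1.58% to 12.3 and 5.52% in BY4741 and from 2.23 and 3.72% to 27.3 and 17.0% in EY0690 (rise 2.44 ± 0.58 SE, adjusted p = 0.00324, edgeR). SIS1, an Hsp40 co-chaperone, went from 10.7 and 8.85% to 23.9 and 26.3% and from 1.75 and 5.97% to 7.47 and 27.3% (rise 1.93 ± 0.58 SE, adjusted p = 0.0415, edgeR). The first starved EY0690 library of SIS1 lay within the glucose range of BY4741, and the call is lost when each region is scaled by TMM (adjusted p = 0.0916). HSP104, the disaggregase, and SSA1, an Hsp70, did not pass, with changes of 1.29 ± 0.54 and 0.97 ± 0.54 (SE), though their mRNA rose by 3.68 and 2.90. Shares were 5.30% ± 1.99 with glucose and 11.8% ± 3.92 without for HSP104, and 10.5% ± 2.29 and 18.8% ± 5.22 for SSA1 (SD, n = 4); SSA1 shares 64.7% of its words with other genes. General stress genes were kept for 6 of 21, all 6 above 0 with a median of 1.28, and HXK1 was the 1 called. PNC1, a nicotinamidase, had a change of 1.73 ± 0.61 and HSP12, a small membrane-stabilising protein, of 0.87 ± 0.58 (SE), and neither passed.

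Proteasome subunits lay on one side of 0 without a single call. All 31 kept genes of 32 lay above 0, with a median of 0.84 and 0.56 relative to the typical gene, and 0 passed in either direction. With each strain fitted alone, 24 of the 31 lay above 0 in both. The medians were 0.37 in BY4741 and 1.14 in EY0690, against -0.07 and 0.69 for all kept genes. RPN5, in the lid, went from 13.8 and 3.37% to 26.4 and 6.27% in BY4741 and from 6.42 and 5.81% to 33.8 and 17.7% in EY0690, and RPN2, in the base, from 3.44% ± 1.92 to 11.4% ± 12.2 (SD, n = 4). In RPN5 the second starved BY4741 library lay within the glucose range. Their changes of 1.68 ± 0.62 and 1.39 ± 0.60 (SE) had edgeR adjusted p = 0.126 and 0.236. Median mRNA of these subunits changed by 0.23.

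Ribosome biogenesis factors were at the other end. Of the 58 kept of 63, only 10 lay above 0, with a median of -0.54 and -0.78 relative to the typical gene; 0 were called without and 2 lower with the replicate block when both regions shared the library size, and 3 were lower relative to the typical gene. NSR1, a nucleolin-like protein, had 9.74 and 4.36% against 0.978 and 2.59% in BY4741 and 3.65 and 11.9% against 2.29 and 2.12% in EY0690. NOG2, a GTPase of large-subunit assembly, had 7.82% ± 5.71 with glucose and 1.80% ± 0.775 without (SD, n = 4). All 4 starved values of both genes lay below the 4 glucose values. Their changes of -1.89 ± 0.59 and -2.09 ± 0.67 (SE) gave adjusted p = 0.0513 and 0.0605 with the shared library size and 0.0186 and 0.0126 with each region scaled by TMM (edgeR). With the replicate block the adjusted p values were 0.0446 for NSR1 and 0.0303 for NOG2 (edgeR). The third of these genes was RRP12, at -2.18 relative to the typical gene (adjusted p = 0.0355, edgeR). None of the 58 had an mRNA change above 0, and the mRNA of 43 was called lower.

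Genes of the translation machinery itself were split. Among translation factors, 35 were kept of 38, with a median of -0.21, 15 above 0 and PAB1 and TEF4 called lower; relative to the typical gene, YEF3 and EFB1 were lower as well. YEF3, the fungal elongation factor 3, had 4.56 and 2.07% against 0.516 and 0.659% in BY4741 and 3.37 and 4.28% against 4.08 and 1.64% in EY0690, a change by value of -2.44 in BY4741 and -0.56 in EY0690. Aminoacyl-tRNA synthetases (18 of 18 kept) had a median of -0.25 with 0 called; for FRS2 and CDC60, the phenylalanyl and leucyl enzymes, the changes were -1.38 ± 0.61 and -1.13 ± 0.56 (SE; edgeR adjusted p = 0.253 and 0.333). CDC60 was lower relative to the typical gene (adjusted p = 0.0446). Cytosolic ribosomal protein genes were taken by symbol (RPL, RPS or RPP with a number), and 120 of 123 such symbols were kept. RPP1, which was not kept, matched by its symbol only and is not a ribosomal protein gene. The 120 had a median of 0.43 with 87 above 0, 5 called higher and 1, RPL32, lower. Relative to the typical gene their median was 0.15, with 5 higher and 5 lower. Their median mRNA change was -0.44, with 0 called higher and 59 lower. The 5 called higher with the shared library size all had an mRNA change below 0, from -0.54 to -0.34. RPL26A, a protein of the large subunit, went from 9.01 and 5.50% to 36.5 and 16.2% in BY4741 and from 2.85 and 6.72% to 12.2 and 30.8% in EY0690 (rise 2.27 ± 0.58 SE, adjusted p = 0.00933, edgeR), without overlap. Its downstream footprints fell by 1.16 (adjusted p = 0.0425). RPL33A, RPL36B and RPS8B were the other called rises beside RPL40B, at 2.11, 1.94 and 1.92, and all 5 have a duplicate copy, sharing 3.37 to 79.3% of their 28-base words with other genes, so the counting may have split their reads. RPS8B loses its call when each region is scaled by TMM (adjusted p = 0.0685, edgeR), and RPS26A is called on that scale in its place (adjusted p = 0.04, edgeR). RPL3, of the large subunit, had a change of -0.72 ± 0.50 (SE), not past the threshold.

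Glycolysis and fermentation genes, 16 kept of 18, had a median of 0.03, or -0.28 relative to the typical gene, with 8 above 0. PYK2, TDH1 and TDH2 were called higher and CDC19 lower. The median mRNA change of the 16 was 0.74, with 11 called higher and 0 lower. TDH1, the glyceraldehyde-3-phosphate dehydrogenase isoform of stressed cells, went from 16.6 and 12.7% to 32.1 and 47.8% in BY4741 and from 3.01 and 7.41% to 32.1 and 46.9% in EY0690. That is a rise of 2.68 ± 0.60 (SE, adjusted p = 0.00138, edgeR), in a gene that shares 28.8% of its words with other genes. TDH2 rose by 1.91 (adjusted p = 0.0213, edgeR), but it shares 54.6% of its words and its starved and glucose shares overlapped. The major isoform TDH3 had a change of 1.32 ± 0.47 (SE) and did not pass. Several abundant enzymes of growth did not pass: PGK1 was at -0.42, ENO2 at 0.35, PDC1 at -0.51, ADH1 at -0.79 and FBA1 at 1.15. The starved shares of FBA1, 18.1 to 22.4%, all lay above its glucose shares of 6.68 to 14.8%. These genes are deeply covered: summed by condition, ENO2 had 14898 start reads with glucose and 14768 without, though 100% of the 28-base words in its start window (words that begin in the first 60 coding bases) also occur in another gene.

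Plasma membrane transporters were kept for 25 of 32, with a median of 0.28, or 0.00 relative to the typical gene, and 15 above 0. PMP1, HXT4 and HXT2 were called higher. HXT4, a glucose transporter of high affinity, went from 4.76 and 1.53% to 27.5 and 15.3% in BY4741 and from 5.88 and 9.52% to 38.1 and 22.8% in EY0690, a rise of 2.65 ± 0.64 (SE; adjusted p = 0.0042, edgeR). HXT2, of the same family, rose by 2.01 (adjusted p = 0.0213, edgeR). The proton pump PMA1 had 3.83% ± 0.884 with glucose and 2.25% ± 1.16 without (SD, n = 4), and its change of -0.92 ± 0.49 (SE) did not pass. Genes of amino acid synthesis (45 of 49 kept) had a median of 0.11, or -0.17 relative to the typical gene, and 0 called; ILV5, in the branched-chain pathway, and LYS1, in lysine synthesis, had changes of -1.57 ± 0.54 and 1.39 ± 0.64 (SE), and ILV5 was 1 of 3 that were lower relative to the typical gene (adjusted p = 0.0222, edgeR). GCN4, the activator of that pathway whose own translation is set by upstream reading frames, had 6.45% ± 3.13 with glucose and 7.16% ± 2.54 without (SD, n = 4), a change of 0.18 ± 0.62 (SE) whose sign depended on the scaling. Cell wall and secreted proteins (29 of 33 kept) had a median of 0.00, or -0.29 relative to the typical gene, with 0 called, among them KAR2 at 1.54 ± 0.55, the chaperone of the endoplasmic reticulum, and PRC1 at 1.43 ± 0.57, a vacuolar carboxypeptidase. For mRNA decay and P-body proteins (16 of 22 kept) the median was 0.32, with 12 above 0 and 0 called; the RNA-binding proteins PUB1 and NGR1 were at 1.14 ± 0.57 and 1.29 ± 0.68 (log2 ± SE).

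**Figure D5:**
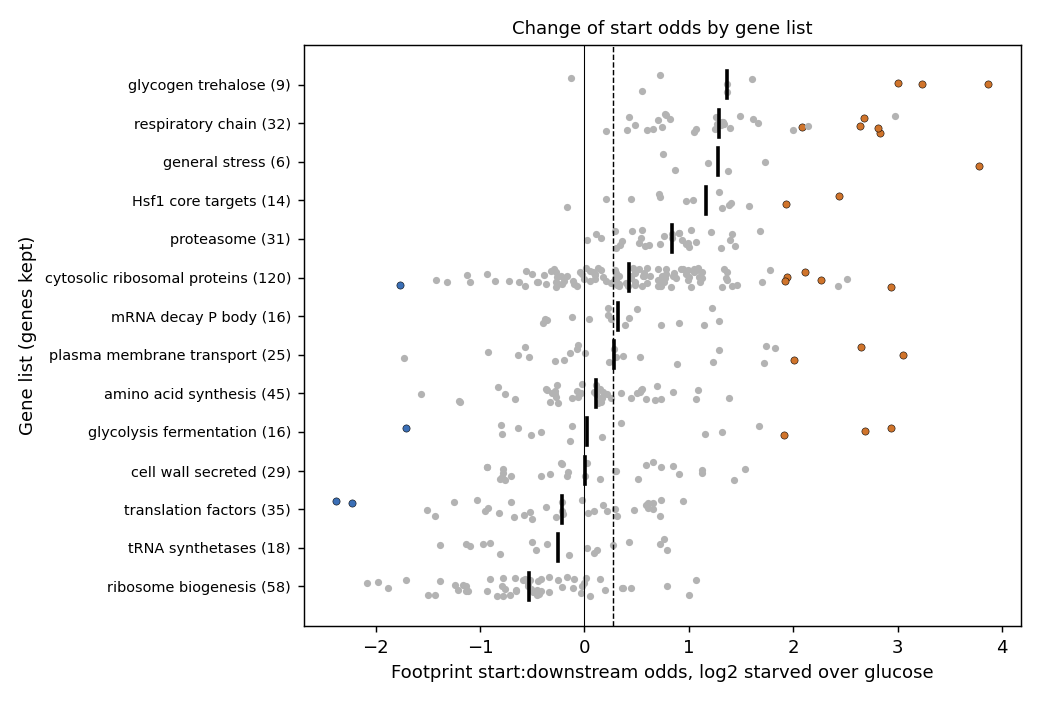
Log2 change of footprint start:downstream odds, starved over glucose, for every kept gene of 14 lists ordered by their median (black bars); coloured points passed the test (orange higher, blue lower), and the dashed line is the median of all 2213 genes, 0.27. Medians run from -0.54 for ribosome biogenesis to 1.37 for glycogen and trehalose genes, and all 31 proteasome and all 32 respiratory chain genes lie above 0.

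The same region test on polyA RNA asked whether the mRNA fragments themselves moved toward the start. It called 0 of 2213 genes higher and 0 lower (0% of those tested) in edgeR, with 65 at an unadjusted p under 0.05, and the median change was 0.03. On the log2 scale, the polyA odds stood 1 or more from 0 for 6 of the 46 genes called higher. The same held for 1 of the 12 called lower, and each went in the direction of the footprints. Over all 2213 genes it held for 146, 97 of them in the direction of the footprints. An unadjusted polyA p under 0.05 (edgeR) was found in 6 of the 46 and 1 of the 12, against 65 of all 2213. HXK1 had 10 start reads of 671 with glucose, 1.49%, and 1.52% without. FKS1 had 0.448% and 0.510%, and PMP1 34.8% and 34.2%. FAS1 is the 1 of the 12, with 0.637% and 0.358%, polyA odds at -1.0 and a footprint change less the polyA change of -0.74 (adjusted p = 0.850, edgeR). Some of the largest rises had too few polyA start reads with glucose to say: SUC2 had 1 of 569, TSL1 2 of 604, MSN4 0 of 477, PYK2 2 of 283 and GIS1 1 of 335. In these genes the polyA odds also stood higher by value, by 3.14, 2.10, 2.81, 1.11 and 0.96 on the log2 scale. In HAP4 and MNR2, which complete the 6 past 1, they stood higher by 2.08 and 1.77. None passed the test. From SUC2 to GIS1 in the order above, the footprint change less the polyA change was 1.52 ± 2.63, 1.82 ± 1.59, 0.49 ± 0.65, 1.85 ± 1.79 and 2.08 ± 2.85 (SE). In HAP4 it was 0.44 and in MNR2 1.16. None of these differences passed (edgeR adjusted p from 0.850 to 0.994), so in these genes the footprint change could not be told from the polyA change.

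When the footprint change was set against the polyA change in one model over 16 libraries, few genes could be told apart. One gene was higher and 1 lower, 0.0452% each, with 193 at an unadjusted p under 0.05 in edgeR. ENO1, an enolase made more without glucose, had footprint shares of 14.7 and 8.14% against 27.7 and 32.1% in BY4741 and 14.3 and 9.71% against 30.6 and 26.6% in EY0690, while its polyA shares went down, from 3.15 to 7.57% over the 4 glucose libraries to 1.99 to 3.07% over the starved ones. Its difference was 2.72 ± 0.54 (SE; adjusted p = 0.0358, edgeR), while the footprint change alone, 1.68 ± 0.54, did not pass without the replicate block (adjusted p = 0.0616) and did with it (adjusted p = 0.0308, edgeR). ENO1 shares 42.4% of its 28-base words with other genes, and 100% of those in its start window, as its paralog ENO2 does, so its start reads cannot be assigned to it with certainty. FKS1 was the gene called lower, by -3.0 ± 0.63 (SE; adjusted p = 0.0447, edgeR). With the replicate block the counts were 9 and 1, and with 1 footprint library left out they ran from 0 to 25 and from 0 to 3, the 25 being without the first glucose BY4741 library. HXK1, PMP1 and QCR6 came next, with differences of 3.78, 3.06 and 2.78 that did not pass (edgeR adjusted p = 0.0555, 0.0555 and 0.0579).

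The strains were compared by the region by condition by strain term. It called 0 genes higher in EY0690 and 1 lower, 0.0452%, with 68 at an unadjusted p under 0.05 in edgeR. By value the median change was 0.69 in EY0690 and -0.07 in BY4741, with a median difference of 0.72 that dropped to 0.04 when each region was scaled by TMM and to 0.09 without the first glucose BY4741 library. The gene called was RPL2B, of the large ribosomal subunit, which has a near-identical copy, RPL2A, so its count is uncertain. It had 0.0957 and 0.555% with glucose against 1.26 and 1.10% without in BY4741, and 1.95 and 2.34% against 0.274 and 0% in EY0690, where 0 of 1056 reads allows up to 0.284%. The change was 2.19 in BY4741 and -3.86 in EY0690, a difference of -6.13 (adjusted p = 0.0218, edgeR). With each region scaled by TMM no gene was called, and with 1 library left out 0 to 2 genes were, 0 in 6 of the 8 cases, with 60 genes at an unadjusted p under 0.05 in the TMM fit.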

How the data were processed

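The deposited values are the authors' raw read counts per gene, split into an initiation region and a downstream region, for footprint, polyA and total RNA libraries. The submitters' processing notes name Bowtie 0.12.8 and the build R64. No source used here gives the counter, the annotation, the bounds of the regions or the treatment of reads with several matches. Values were taken as deposited, without a step of normalization; 36 of the 72 columns of single samples were not used. In the first starved BY4741 footprint library, 60 blank cells per region were read as 0. Of 5381 genes, 5379 matched the RefSeq R64 annotation, and the listed length equals the genomic span less 1 base for 5335.

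Start and downstream counts were 2 columns per library in edgeR 4.0.16 (R 4.3.3), with 1 term per library, the region, region by strain and region by condition. Both columns of a library shared its total as library size. The SE of a change was worked back as its size over the square root of the test statistic F. P-values were adjusted by Benjamini-Hochberg over all genes with at least 50 reads in every footprint library, with a threshold of 0.05. Library values were compared by exact permutation within strain. Levels of mRNA and of start and downstream footprints were fitted over the table with TMM. Alternatives used DESeq2 1.42.0, limma 3.58.1, TMM in each region, other read minimums, other sets of libraries and a replicate block. The fit was tested on simulated footprints without against with glucose (2213 genes, 100 changed at each size). It recovered 45% of changes of 2 and 83% of changes of 3 on the log2 scale, with 4.48% of calls false. With TMM these were 48%, 91% and 4.14%. The simulated libraries were independent, with 1 dispersion for all genes and no strain effect. With the shared library size, they also lacked the differences in start share between real libraries, 8.34 to 14.4%. These rates therefore need not hold for the calls above. Depth ranged from 783172 to 8831738 reads per footprint library, and intervals and limits cover counting error only.

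Deviations of same-numbered footprint libraries from their group means correlated at 0.51 in BY4741 and 0.158 in EY0690, so by a minimum of 0.1 the numbers were taken to pair the libraries. The pairing comes from this check and from the replicate numbers in the labels, which name no shared culture or day.

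Genes named are the 10 largest rises and 10 largest falls past the threshold without overlap of groups, the 2 smallest p-values of each list, and a set of fixed examples; others are said to be chosen after their values were seen or complete a small count. The members, lists and tests were chosen with earlier results of these data known. A gene's share of 28-base words found in other coding sequences marks where counting could split reads.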

Additional observations from a re-analysis of the deposited data

Results flagged for a closer look

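In 118 sets of 4 libraries, the highest or lowest value stood far from the other 3 in 13 by Dixon's test at its 95% critical value; chance flags about 1 in 20 groups. No cause of these distances was tested.

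In the second starved BY4741 footprint library, 4 genes stood apart. The start share of PMP1 was 74.2% there, against 93.2 to 96.0% in the other 3 starved libraries. ANP1 had 5.84%, against 0.629 to 1.41%, and PRC1 had 16.2%, against 7.84 to 8.99%. FBA1 had 18.1%, below the 22.0 to 22.4% of the others. In the first starved EY0690 library, 4 more stood apart. SIS1 had 7.47%, against 23.9 to 27.3%, and NOG2 had 0.654%, against 2.06 to 2.34%. RPN2 had 29.5%, against 3.17 to 7.62%, and CDC60 had 1.99%, against 1.13 to 1.26%.

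Other libraries stood apart for fewer genes. QCR6 had 76.2% in the first starved BY4741 library, against 50.1 to 53.1% in the other starved ones. With glucose, MGM1 had 5.17% in the first EY0690 library, against 1.15 to 1.54%, and PAB1 had 1.73% in the same library, against 6.0 to 6.35%. CDC60 had 5.61% in the first glucose BY4741 library, against 2.15 to 2.69%. In polyA RNA, the median gene start share of the first starved BY4741 library was 2.19%, against 2.03 to 2.05% in the other starved libraries.

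RPL2B differed between the strains by -6.13 on the log2 scale in its response of start odds, EY0690 less BY4741, by the interaction test (adjusted p = 0.0218, edgeR).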

How the results depend on the processing

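Differences in library-wide and median start shares were above 0 in every alternative run, at 0.295 to 2.32 and 0.442 to 2.54 points when 1 library was left out. The exact p was 0.625 for both with same-numbered pairs as the replicate block. Most of these tests could not reach 0.05 (smallest possible p 0.0556 within strain, 0.111 with 1 library left out, 0.125 with the block), so their p-values say nothing about stability.

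Of the counts of genes called by region (46 higher, 12 lower), the numbers that moved most were as follows. A read minimum of 100 gave 29 higher, TMM in each region 46 lower, and limma 5 lower. With the replicate block 72 were higher. Without the strain covariate 15 were higher and 4 lower. Leaving out 1 library gave 9 to 180 higher and 5 to 13 lower. Without both BY4741 libraries numbered 2, 27 were higher; BY4741 alone gave 0 and 0, EY0690 alone 72 and 6. Chosen after seeing the data, TMM without the first glucose BY4741 library gave 30 lower, TMM with the replicate block 170 higher and 153 lower, and TMM without both BY4741 libraries numbered 2 gave 56 lower. DESeq2 (56 and 17, with 43 adjusted p not given), a read minimum of 20 (56 and 10) and removal of genes sharing words (42 and 14) stayed within 1.5 times. The causes were not tested, except that fewer libraries or genes entered some fits.

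For footprints less polyA RNA (1 and 1), the replicate block gave 9 higher, TMM gave 5 higher and 2 lower, and leaving out 1 library 0 to 25 and 0 to 3. For polyA RNA alone (0 and 0), leaving out 1 library gave 0 to 1 lower; the replicate block and TMM gave 0. For the strain difference (0 and 1), TMM gave 0 lower and leaving out 1 library 0 to 2.

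Of the named genes that were called, none changed sign in these alternatives. Among genes not called, GCN4 was at -0.085 with TMM, from -0.12 to 0.48 when 1 library was left out (below 0 without the first glucose or the second starved EY0690 library), -0.18 in BY4741 alone, -0.16 with TMM without the first glucose BY4741 library and -0.12 with TMM and the replicate block. PDC1 ran from -1.03 to 0.14 when 1 library was left out (above 0 without the first starved BY4741 library) and was at 0.56 in EY0690 alone. ENO2 was at -0.24 and -0.17 with TMM without the first glucose or both second BY4741 libraries. Over all alternatives, the 10 largest rises kept their call in 175 of 213 cases and the 10 largest falls in 153 of 219. Depth in EY0690 limits genes with few start reads.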
